A study of Mus musculus with 24 samples.

Results

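Chemokines and their receptors were followed across the sorted cells and whole livers of a mouse study on the crosstalk of hepatic stellate cells (HSCs), macrophages and endothelial cells (ECs). The members were chosen by name alone, as symbols that begin with *Ccl*, *Cxcl*, *Cx3cl*, *Xcl*, *Ccr*, *Cxcr*, *Cx3cr*, *Xcr* or *Ackr* and go on with a number and at most 1 letter. They come to 61 of the 48574 gene symbols in the count tables, and comprise 39 ligands, 18 receptors and 4 atypical receptors. RNA-seq counts were given for 24 libraries in 8 groups of 3. The *Gdf2/Bmp10* HSC-KO mice carried floxed alleles of *Gdf2* and *Bmp10*, which encode ligands of the receptor ALK1, and *Lrat-Cre*, which is active in HSCs. Liver macrophages (CD45+Ly6C-F4/80+CD64+), liver ECs (CD45-CD31+) and whole livers of these mice were each compared with those of control mice, which the labels call control and WT without giving their alleles. In a further comparison, macrophages sorted in the same way came from *Smad4 fl/fl* mice with *Vav1-Cre* (Smad4 cKO), in which the deletion takes place in all blood-forming cells, and from *Smad4 fl/fl* controls. The background is C57BL/6 by the labels and C57BL/6J by the study's methods. The sorted cells came from mice aged 8 to 10 weeks and the livers from mice aged 12 weeks. By the labels, 3 mice gave both a macrophage and an EC library, and 1 of them gave HSC-KO macrophage replicate 3 and HSC-KO EC replicate 1.

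Chemokines are small secreted proteins that steer the movement of leukocytes by binding G protein-coupled receptors on them. CC, CXC, CX3C and XC chemokines are named for the spacing of their first cysteines. Inflammatory ligands are induced by injury and recruit monocytes, neutrophils and effector lymphocytes, whereas homeostatic ligands place lymphocytes and dendritic cells in tissues at rest. Atypical receptors bind chemokines without signalling through G proteins, and many take them up and degrade them. In the liver, Kupffer cells are the resident macrophages, and sinusoidal ECs form the porous vessel wall that leukocytes cross. ALK1 signals through SMAD proteins, of which SMAD4 is the shared partner.

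Total counts ranged from 60911527 to 110879155 per library. Levels are given as CPM, the counts of a gene relative to its library's total after scaling with factors estimated over all 24 libraries (TMM). Fold changes compare knockout with control on the log2 scale, with the standard error (SE) of the fit, and p values are Benjamini-Hochberg adjusted over all genes tested in edgeR's quasi-likelihood test. A gene was called where the adjusted p was below 0.05 and the log2 fold change was beyond 1 in either direction, and only called genes are said to have risen or fallen. The deleted genes followed the labels: in livers, *Gdf2* was 22.5, 11.04 and 26.8 CPM in controls and 4.43, 2.44 and 3.05 CPM in HSC-KO mice, and *Smad4* in macrophages was 39.5, 35.4 and 42.2 CPM in controls and 16.9, 12.5 and 15.2 CPM in Smad4 cKO mice. The summed level of 6 Kupffer cell markers was between 32913 and 35584 CPM in control macrophages and between 3121 and 3298 CPM in HSC-KO macrophages, while 6 markers of macrophages in general summed to between 16188 and 18011 and between 12985 and 14946 CPM. *Csf1r* is in both lists and made up most of the HSC-KO Kupffer cell sum, at 3223, 3208 and 2911 CPM. Of the 6 Kupffer cell markers, 5 fell. Among these, *Clec4f* was 12029, 12560 and 11234 CPM in controls and 7.99, 3.27 and 15.8 CPM in HSC-KO macrophages. Several libraries stood apart. In HSC-KO EC replicate 1, *Ackr2*, *Cxcl9*, *Cxcl10*, *Cxcl16* and *Cx3cl1* lay between the control level and that of the other two HSC-KO libraries. HSC-KO macrophage replicate 3 was high in lymphocyte-type members, Smad4 cKO replicate 3 was high in *Cxcl2*, *Ccl3* and *Ccl4*, and 12 endothelial markers stood at a median of 3.61 to 11.3% of the EC level in the Smad4 libraries against at most 1.93% in the other macrophage libraries.

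The start sites of 6 members on which the results below turn are shown here, because the deleted ligands and SMAD4 act on transcription. Each sequence is a RefSeq promoter window of 300 bases on GRCm38.p6, from 250 bases before to 50 after the start, printed 5′ to 3′ on the gene's own strand. Capitals mark matches, on either strand, to CAGAC, which holds the core of the SMAD-binding element, and to GGCGCC, which is found in BMP-responsive elements.
Cxcl13 (chr5:95956689-95956988, +): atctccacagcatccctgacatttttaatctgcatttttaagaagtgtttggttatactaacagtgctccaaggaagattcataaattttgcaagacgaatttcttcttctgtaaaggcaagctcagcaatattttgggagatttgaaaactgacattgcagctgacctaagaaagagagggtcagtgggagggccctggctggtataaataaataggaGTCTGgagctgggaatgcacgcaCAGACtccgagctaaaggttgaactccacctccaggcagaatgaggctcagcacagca
Ccl6 (chr11:83593038-83593337, -): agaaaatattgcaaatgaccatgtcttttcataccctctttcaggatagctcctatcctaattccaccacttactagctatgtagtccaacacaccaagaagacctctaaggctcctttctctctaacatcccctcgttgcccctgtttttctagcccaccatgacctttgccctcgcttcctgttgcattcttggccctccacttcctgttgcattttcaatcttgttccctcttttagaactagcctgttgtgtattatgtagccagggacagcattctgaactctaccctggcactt
Cx3cr1 (chr9:120068247-120068546, -): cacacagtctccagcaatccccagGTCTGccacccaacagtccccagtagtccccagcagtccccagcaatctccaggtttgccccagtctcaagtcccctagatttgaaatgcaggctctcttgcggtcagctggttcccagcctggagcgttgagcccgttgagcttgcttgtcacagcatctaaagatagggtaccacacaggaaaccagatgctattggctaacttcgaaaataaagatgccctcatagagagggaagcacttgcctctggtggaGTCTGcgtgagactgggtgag
Ccr1 (chr9:123968643-123968942, -): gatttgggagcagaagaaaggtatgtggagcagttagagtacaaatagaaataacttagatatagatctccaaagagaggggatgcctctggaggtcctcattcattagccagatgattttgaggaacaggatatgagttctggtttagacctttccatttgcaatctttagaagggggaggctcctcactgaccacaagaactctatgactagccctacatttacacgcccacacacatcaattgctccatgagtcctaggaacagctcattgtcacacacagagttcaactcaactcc
Cx3cl1 (chr8:94771930-94772229, +): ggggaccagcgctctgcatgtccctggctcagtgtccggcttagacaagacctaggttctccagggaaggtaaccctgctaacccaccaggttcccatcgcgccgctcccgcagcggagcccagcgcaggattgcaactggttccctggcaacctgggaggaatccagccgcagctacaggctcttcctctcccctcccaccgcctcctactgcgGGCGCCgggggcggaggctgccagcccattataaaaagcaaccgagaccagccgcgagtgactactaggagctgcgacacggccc
Ackr4 (chr9:104126594-104126893, -): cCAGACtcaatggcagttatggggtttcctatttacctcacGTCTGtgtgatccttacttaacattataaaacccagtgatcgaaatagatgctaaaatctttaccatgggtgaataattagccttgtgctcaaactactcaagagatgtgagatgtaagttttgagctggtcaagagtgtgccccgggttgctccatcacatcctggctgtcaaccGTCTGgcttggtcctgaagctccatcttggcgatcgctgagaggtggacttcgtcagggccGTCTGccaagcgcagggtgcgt

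The window of *Cxcl13* holds CAGAC at positions -31 and -8 from the start, that of *Cx3cr1* at -226 and 29, and that of *Ackr4* at -249, -209, -33 and 28. The window of *Cx3cl1* holds GGCGCC at -35, and those of *Ccl6* and *Ccr1* hold neither. CAGAC is found in 49.6% of all 32851 windows of this length and in 30 of the 52 windows of members, and GGCGCC in 11.9% and in 4 of 52. A match describes the letters of the window and is no evidence of a bound site.

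The first question was which cells carry which transcripts in control mice. Of the 61 members, 42 reached a mean of 1 CPM in at least 1 group, and *Ccl21c*, *Ccl26* and *Cxcl15* had at most 2 counts in any of the 24 libraries. Control macrophages had 30 members at 1 CPM or more (21 ligands and 9 receptors), control ECs 13 (9 and 4) and control livers 24 (15 and 9). Macrophages had the most members at this level. The difference between control macrophages and control ECs was tested for 44 members, of which 26 were higher in macrophages and 7 in ECs, beside 18.0% of all genes in each direction. Of the 44, 11 reached the count filter in all libraries of both cell types, 25 only in macrophages and 6 only in ECs. Members that reached it in 1 cell type only, among them 20 of the 26 and 6 of the 7, entered the test through the cell type in which they are high, so these counts are a description only.

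Among ligands of control macrophages, *Ccl6* had the highest level per kilobase of exon, at 1056 CPM per kilobase. It encodes a mouse CC chemokine that binds CCR1. Next came *Cxcl13*, the ligand that draws B cells through CXCR5, with 235 CPM per kilobase, and *Ccl24* (eotaxin-2, a CCR3 ligand) with 213 CPM per kilobase, followed by the membrane-anchored *Cxcl16* with 198 CPM per kilobase. *Cxcl10*, at rank 5 by CPM rather than per kilobase, had 24.9 CPM per kilobase. In CPM, *Ccl6* was 1896 ± 229 and *Ccl24* 276 ± 27.4 in control macrophages (mean ± SD, n = 3). *Ccl6* in control ECs was 1.70, 2.11 and 1.91 CPM. General macrophage markers stood at a median of 0.0934, 0.0781 and 0.0935% of the macrophage level in these libraries, and macrophage RNA in that share would carry 1.77, 1.48 and 1.77 CPM of *Ccl6*. The part of macrophage RNA in the EC level was not tested. Of the receptors, *Cx3cr1* was at 5.56, *Cxcr3* at 5.24 and *Ccr3* at 5.09 CPM per kilobase, and the libraries of neighbours in that order overlap.

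Control ECs had a narrow set. Their ligands were *Cxcl16* at 173 CPM per kilobase, then *Cxcl9* at 41.4 and *Cxcl10* at 34.4, which both attract T cells through CXCR3. *Cxcl16* stood at 522 ± 29.8 CPM in ECs and 597 ± 50.2 CPM in macrophages, and this difference was not called (log2 fold change 0.12, SE 0.14, adjusted p = 0.52). Reads of *Cxcl16* may include some of *Zmynd15*, since 18.3% of its exon length overlaps that gene on the opposite strand and the use of the strand is not given. Of the receptors, ECs carried almost solely atypical ones. *Ackr1*, which carries chemokines across vessel walls, was 124, 111 and 70.7 CPM, *Ackr2*, which degrades inflammatory CC chemokines, was 66.4, 50.8 and 55.97 CPM, and *Ackr4*, which degrades CCL19, CCL21 and CCL25, was 62.6, 41.8 and 48.4 CPM. The fourth, *Ackr3*, a scavenger of CXCL11 and CXCL12, was 2.04, 1.64 and 0.679 CPM, and the next receptor, *Ccr9*, which guides lymphocytes to the gut, had a mean of 0.149 CPM. All 4 atypical receptors were called higher in ECs than in macrophages. They reached the count filter in all libraries of ECs only and so entered the test through the cell type in which they are high. Their calls are therefore a description only. *Ackr3* had no count in control macrophages and was at least 27.2-fold higher in ECs, with 3 counts per library taken as the floor. The exons of *Ackr1* overlap *Cadm3* on the same strand over 25.7% of their length.

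In control livers the order was different again, with *Cxcl12* at 56.3 CPM per kilobase, *Ccl9* at 18.2 and *Cxcl9* at 7.37, ahead of *Ccl6* at 4.92 and *Cxcl16* at 4.48. The receptors were lower, led by *Ackr2* at 1.57 CPM per kilobase. *Cxcl12*, the CXCR4 ligand that retains blood cells in niches, was 463, 514 and 405 CPM in control livers, 17.5, 12.1 and 4.42 CPM in ECs and 2.02, 19.1 and 12.7 CPM in macrophages. *Ccl9*, a CCR1 ligand, was 54.8, 54.1 and 57.4 CPM in livers, 11.2, 14.2 and 6.02 CPM in macrophages and 0.0943, 0 and 0.0806 CPM in ECs. Every liver library was above every library of either sorted population for both genes. Livers and sorted cells were not compared by a test.

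**Figure D1:**
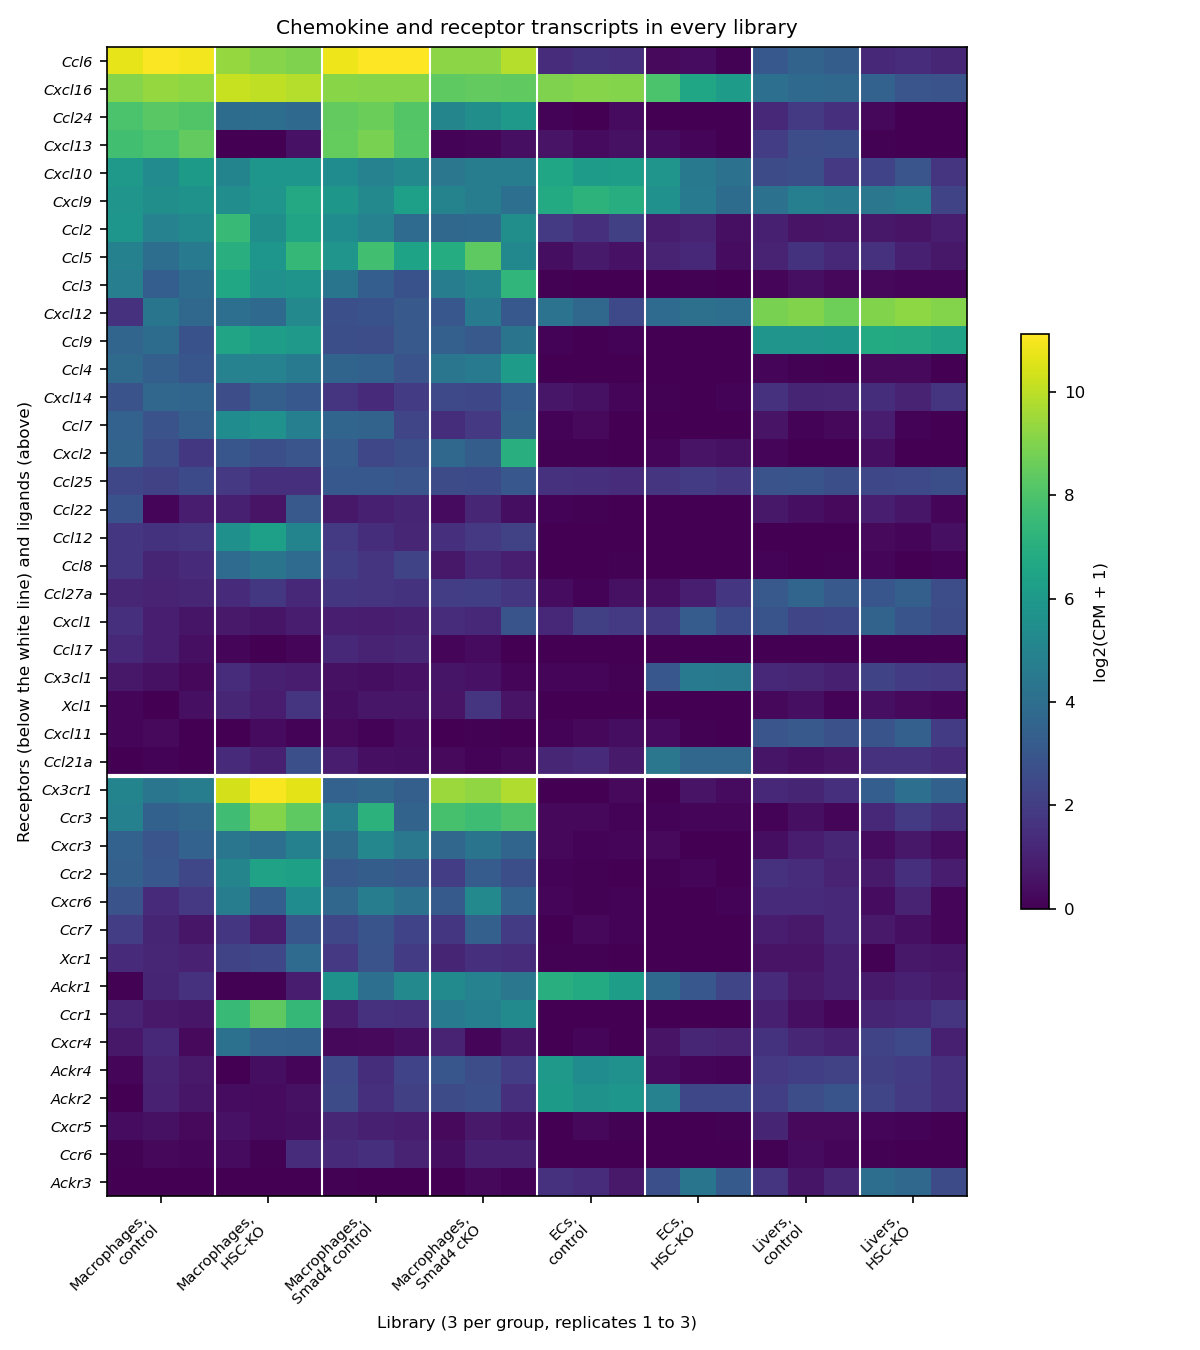
Levels of the members with a mean of at least 1 CPM in at least 1 group, as log2(CPM + 1) by colour, with members in rows (ligands above and receptors below the white line) and the 24 libraries in columns, 3 per group. The *Ccl6* row is brightest in macrophages, *Cxcl12* in livers, and the *Ackr1*, *Ackr2* and *Ackr4* rows in control ECs.

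The second question was how macrophages changed when HSCs lacked *Gdf2* and *Bmp10*. Of the 61 members, 44 passed the filter on low counts and were tested, and 16 of them rose and 3 fell, beside 6.32% of all genes tested that were called higher and 5.34% called lower. The median log2 fold change of the 44 was 1.19, against 0.04 over all genes. Without replicate 3, the HSC-KO library that stood apart, 17 members were called instead of 19. Among 27 ligands tested, 8 rose and 3 fell, and among 17 receptors 8 rose and none fell. In bulk RNA of sorted cells or livers, fewer cells of a type and less RNA per cell cannot be told apart.

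The ligands that fell were 3 of the 4 highest of control macrophages per kilobase. *Cxcl13* was 212, 248 and 350.04 CPM in control libraries and 0, 0 and 0.471 CPM in HSC-KO libraries (log2 fold change -10.64, SE 1.06, adjusted p = 0.00059). The 3 HSC-KO libraries held 0, 0 and 45 counts of it, so that its transcript all but vanished and the fitted fold change has little precision. *Ccl24* was 250.04, 305 and 275 CPM in controls and 14.1, 15.2 and 12.8 CPM in HSC-KO macrophages (log2 fold change -4.24, SE 0.13, adjusted p = 9.2e-06). *Ccl6* was 1665, 2122 and 1899.9 CPM in controls and 657, 538 and 497 CPM in HSC-KO macrophages (log2 fold change -1.69, SE 0.16, adjusted p = 0.00046). Even after this fall, *Ccl6* at 314 CPM per kilobase and *Cxcl16* at 347 CPM per kilobase were the highest ligands of these macrophages. *Cxcl16* was 552, 651 and 588 CPM in controls and 1152, 1047 and 946 CPM in HSC-KO macrophages, without overlap, at a change below the fold limit (log2 fold change 0.87, SE 0.13, adjusted p = 0.0037).

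Of 4 ligands listed for CCR2, the receptor of classical monocytes, 3 rose, where 6.32% of all genes were called higher. *Ccl12*, a mouse CCR2 ligand, was 2.34, 2.09 and 2.21 CPM in controls and 46.1, 77.2 and 31.4 CPM in HSC-KO macrophages (log2 fold change 4.59, SE 0.33, adjusted p = 0.00016). *Ccl7*, another CCR2 ligand, was 10.4, 6.25 and 9.22 CPM and 41.3, 48.8 and 27.2 CPM (log2 fold change 2.23, SE 0.27, adjusted p = 0.0014). *Ccl8*, which in mice is also known as a ligand of CCR8, was 2.39, 1.23 and 1.55 CPM and 13.6, 18.1 and 13.8 CPM (log2 fold change 3.18, SE 0.29, adjusted p = 0.00041). For all 3, every HSC-KO library was above every control. *Ccl2*, the best-known CCR2 ligand and a neighbour of these genes, overlapped between the groups, with 56.03, 29.5 and 37.5 CPM in controls and 182, 45.1 and 88.2 CPM in HSC-KO macrophages (log2 fold change 1.42, SE 0.48, adjusted p = 0.082).

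A group of inflammatory ligands that share receptors (*Ccl3*, *Ccl4*, *Ccl5*, *Ccl6* and *Ccl9*) was called in full, with *Ccl6* alone among them falling, where 6.32% of all genes were called higher and 5.34% lower. *Ccl9* was 11.2, 14.2 and 6.02 CPM in controls and 88.1, 73.00 and 61.4 CPM in HSC-KO macrophages (log2 fold change 2.87, SE 0.31, adjusted p = 0.00084). *Ccl3*, an inflammatory ligand of CCR1, was 25.6, 8.87 and 14.3 CPM and 101, 48.8 and 53.1 CPM (log2 fold change 2.11, SE 0.44, adjusted p = 0.014). *Ccl4*, which attracts T cells and monocytes, was 13.5, 9.43 and 6.84 CPM and 29.6, 29.8 and 22.99 CPM (log2 fold change 1.52, SE 0.26, adjusted p = 0.0062). Every HSC-KO library was above every control for these 3. With the summed endothelial markers as a covariate neither *Ccl3* (adjusted p = 0.26) nor *Ccl4* (adjusted p = 0.17) was called, and *Ccl3* was not called without control replicate 3 (adjusted p = 0.059). *Ccl5*, which T and NK cells also produce, was 28.3, 15.1 and 22.1 CPM and 129, 55.4 and 166 CPM (log2 fold change 2.48, SE 0.43, adjusted p = 0.0064). *Ccl21a*, a homeostatic ligand of CCR7, was 0, 0.0846 and 0 CPM and 1.55, 0.969 and 5.60 CPM (log2 fold change 6.49, SE 1.30, adjusted p = 0.012), highest in replicate 3. The only counts in controls were in replicate 2, and without that library the log2 fold change was 10.87, against 5.38 to 6.90 without any 1 of the others. The endothelial markers of the HSC-KO macrophage libraries would account for 0.0131, 0.00773 and 0.0580 CPM of *Ccl21a* by the level of HSC-KO ECs, while *Pdpn*, a marker of lymphatic ECs that other stromal cells also express, was 0, 0.0846 and 0.107 CPM in controls and 1.07, 0.442 and 1.66 CPM in HSC-KO macrophages. It was the 1 marker called of 4 lymphatic EC markers tested there, and *Prox1* was 0.570 to 1.00 CPM in controls and 0.211 to 0.625 CPM in HSC-KO macrophages. The share of lymphatic or stromal cells in this rise was not tested, and reads of *Ccl21a* cannot be told apart with certainty from those of its near-identical copies.

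All receptors called had risen. The largest change among them was that of *Ccr1*, the receptor for CCL3, CCL5, CCL6 and CCL9, with 1.06, 0.677 and 0.587 CPM in controls and 184, 323 and 170.2 CPM in HSC-KO macrophages (log2 fold change 8.21, SE 0.38, adjusted p = 3.7e-05). *Cx3cr1*, the fractalkine receptor of monocytes and of many resident macrophages, was 31.01, 19.6 and 24.6 CPM and 1341, 2061 and 1594 CPM (log2 fold change 6.11, SE 0.27, adjusted p = 3.4e-05). *Ccr3*, the eotaxin receptor, was 28.2, 9.92 and 11.9 CPM and 209, 524 and 322 CPM (log2 fold change 4.44, SE 0.52, adjusted p = 0.0012). After these changes *Cx3cr1*, at 369.6 CPM per kilobase, was the highest member of all in HSC-KO macrophages. *Ccr3* is best known from eosinophils, and in these libraries the eosinophil genes *Epx* and *Prg2* had no count in any control or HSC-KO macrophage library, while *Siglecf* was 4.20 to 5.18 CPM in controls and 0.836 to 1.21 CPM in HSC-KO macrophages. *Il5ra*, also from this list, was 0.263, 0 and 0.0712 CPM in controls and 0 CPM in every HSC-KO macrophage library. These eosinophil genes were chosen after the *Ccr3* values were seen, and the part of eosinophils in the *Ccr3* rise was not tested.

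*Ccr2*, which brings monocytes out of the bone marrow, was 9.58, 7.07 and 4.15 CPM in controls and 32.5, 84.4 and 79.6 CPM in HSC-KO macrophages (log2 fold change 3.29, SE 0.44, adjusted p = 0.0021). *Cxcr4*, the CXCL12 receptor, was 0.633, 1.37 and 0.231 CPM and 16.5, 10.2 and 9.80 CPM (log2 fold change 4.07, SE 0.59, adjusted p = 0.0032), and was not called with the endothelial covariate (adjusted p = 0.053). Both were above all controls in each HSC-KO library. The sum of 6 monocyte markers was 85.8 to 189 CPM in controls and 36.8 to 48.7 CPM in HSC-KO macrophages, and of 4 tested 2 rose and 1 fell. Of these markers, *Ly6c2* was 0.285 to 0.668 CPM and 0.547 to 3.89 CPM, and *Plac8*, the most abundant in controls, 81.1 to 184 CPM and 3.02 to 11.9 CPM. The sort for Ly6C- cells is meant to leave out monocytes that carry Ly6C. The part of monocytes in the *Ccr2* rise was not tested.

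Other receptors that rose are typical of lymphocytes or dendritic cells. *Cxcr6*, the CXCL16 receptor of liver T and NK cells, was 6.28, 1.60 and 2.60 CPM in controls and 24.4, 8.98 and 41.5 CPM in HSC-KO macrophages (log2 fold change 2.90, SE 0.68, adjusted p = 0.023). *Cxcr3*, a receptor of activated T cells and NK cells, was 10.4, 6.55 and 10.2 CPM and 19.8, 15.4 and 28.3 CPM (log2 fold change 1.29, SE 0.29, adjusted p = 0.019). *Xcr1*, which marks cross-presenting dendritic cells, was 1.52, 1.26 and 1.03 CPM and 3.88, 4.34 and 13.9 CPM (log2 fold change 2.61, SE 0.55, adjusted p = 0.015). The groups did not overlap, yet the highest HSC-KO library was replicate 3 each time. Markers of T and NK cells moved in the same libraries: 5 of 7 T cell markers rose and their sum went from 5.96 to 17.4 CPM in controls to 31.2 to 118 CPM, and 5 of 6 NK cell and type 1 innate lymphoid cell markers rose, with sums of 4.06 to 4.81 CPM and 19.2 to 52.0 CPM. Of 6 B cell markers, 2 rose, with sums of 84.3 to 121 CPM and 526 to 741 CPM. Sums of 6 conventional dendritic cell markers were 70.1 to 92.2 CPM and 97.8 to 117 CPM, with none called. The sort for CD45+Ly6C-F4/80+CD64+ cells is meant to leave lymphocytes out and most dendritic cells too. The part of such cells in *Cxcr6*, *Cxcr3*, *Xcr1* and *Ccl5* was not tested. Without HSC-KO replicate 3, *Xcr1* (log2 fold change 1.73, adjusted p = 0.019) and *Ccl5* (log2 fold change 2.12, adjusted p = 0.017) were still called, *Xcr1* at a lower fold change. The call of *Cxcr6* ended without HSC-KO replicate 1 or 3 or control replicate 2 or 3 (adjusted p = 0.061 to 0.085), that of *Cxcr3* without HSC-KO replicate 1 or 3 or control replicate 2 (0.054 to 0.063), and that of *Xcr1* without control replicate 2 or 3 (0.057 each). *Cxcr6* (adjusted p = 0.12) and *Cxcr3* (adjusted p = 0.11) were not called with the endothelial covariate either, nor *Xcr1* with *Xist* as covariate (adjusted p = 0.058). *Xist*, a transcript of female cells, spanned 13.2 log2 units over the libraries of this comparison, 12.3 in ECs and 12.1 in livers. In the Smad4 libraries it spanned 2.04 and was not used as covariate.

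The third question was which of these changes also appeared when the blood-forming cells lacked *Smad4*. Of 45 members tested, 2 rose and 5 fell in Smad4 cKO macrophages, beside 2.76% of all genes called higher and 2.67% called lower. Scaled by library size alone, 4 rose and 5 fell, and with DESeq2 6 rose and 8 fell. The median log2 fold change was -0.08, against 0.04 over all genes. Of the 7 members called, 6 were also called in HSC-KO macrophages, in which they are 6 of 19, and 5 of these had the same direction. Over all genes, 599 of the 951 called in Smad4 cKO macrophages (63.0%) were also called in HSC-KO macrophages, in which they are 31.5% of 1904, and 595 of the 599 had the same direction. The mice of the 2 experiments share no control library.

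Those 5 were the 3 ligands that fell in HSC-KO macrophages and the pair of receptors with the largest rise there. *Cxcl13* was 358, 475 and 292 CPM in *Smad4 fl/fl* controls and 0.0708, 0.103 and 0.365 CPM in Smad4 cKO macrophages (log2 fold change -11.08, SE 0.60, adjusted p = 0.00011). *Ccl24* was 342, 396 and 282 CPM and 31.9, 43.6 and 62.5 CPM (log2 fold change -2.88, SE 0.26, adjusted p = 0.00094). *Ccl6* was 1842, 2176 and 2208 CPM and 587, 578 and 923 CPM (log2 fold change -1.57, SE 0.21, adjusted p = 0.0043). No library of these 3 ligands overlapped between the groups. *Cx3cr1* was 10.2, 11.8 and 9.33 CPM in controls and 686, 619.6 and 889 CPM in Smad4 cKO macrophages (log2 fold change 6.14, SE 0.21, adjusted p = 4.2e-05). *Ccr1* was 0.822, 1.98 and 1.91 CPM and 22.9, 26.8 and 37.6 CPM (log2 fold change 4.22, SE 0.38, adjusted p = 0.00093). Both receptors were above every control. The 6 Kupffer cell markers summed to 25883 to 33058 CPM in these controls and 3213 to 3590 CPM in Smad4 cKO macrophages. Most of the latter was *Csf1r*, at 2727, 2436 and 2898 CPM.

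*Ccl8* went the other way. It was 3.21, 2.27 and 3.92 CPM in controls and 0.647, 1.45 and 0.882 CPM in Smad4 cKO macrophages (log2 fold change -1.65, SE 0.37, adjusted p = 0.039), a call that ended without any 1 of the libraries other than Smad4 cKO replicate 2 (adjusted p = 0.052 to 0.15). *Ccl2*, *Ccl7* and *Ccl12* overlapped between the groups and were not called, *Ccl12* with 2.75, 1.76 and 1.27 CPM in controls and 1.84, 2.56 and 3.45 CPM in Smad4 cKO macrophages (log2 fold change 0.45, SE 0.37, adjusted p = 0.56). *Ccr2* was 7.51, 8.78 and 7.56 CPM and 3.05, 8.36 and 5.32 CPM, with overlap (log2 fold change -0.50, SE 0.34, adjusted p = 0.46). *Ccr3* was 25.4, 141 and 10.7 CPM in controls, of which replicate 2 stood apart, and 231, 198 and 254 CPM in Smad4 cKO macrophages, above all controls but not called (log2 fold change 1.97, SE 0.82, adjusted p = 0.22). *Cxcl2*, a neutrophil attractant, was 8.39, 4.11 and 5.45 CPM and 12.5, 8.80 and 128 CPM (log2 fold change 3.07, SE 1.01, adjusted p = 0.13), and *Ccl3* was 18.96, 9.12 and 5.97 CPM and 24.8, 32.1 and 158 CPM (log2 fold change 2.66, SE 0.78, adjusted p = 0.091). Replicate 3 was by far the highest Smad4 cKO library for both, and neither was called.

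The difference between the 2 macrophage responses was tested itself, as an interaction over the 12 libraries. Of 48 members tested, 8 had a higher log2 fold change in HSC-KO than in Smad4 cKO macrophages and 1 a lower one, beside 1.46% and 1.22% of all genes. The receptor *Ccr1* rose in both and more in HSC-KO macrophages (log2 difference 4.04, SE 0.51, adjusted p = 0.0017). The changes of *Ccr2* (log2 difference 3.84, SE 0.60, adjusted p = 0.0066), *Ccl12* (log2 difference 4.19, SE 0.50, adjusted p = 0.0013) and *Ccl8* (log2 difference 4.88, SE 0.49, adjusted p = 0.00049) also differed between the knockouts, and each was the higher in HSC-KO macrophages. *Ccl24* fell further in HSC-KO macrophages (log2 difference -1.32, SE 0.30, adjusted p = 0.036). *Cxcl16* lay above its controls in HSC-KO macrophages and below them in Smad4 cKO macrophages, where it was 567, 546 and 552 CPM in controls and 321, 346 and 331 CPM in cKO libraries, and its responses differed (log2 difference 1.65, SE 0.15, adjusted p = 0.00036). *Xcr1* (log2 difference 3.89, SE 0.72, adjusted p = 0.016), *Cxcr3* (log2 difference 2.05, SE 0.50, adjusted p = 0.05; the adjusted p lies just under the limit before rounding) and *Ccl21a* (log2 difference 8.32, SE 1.49, adjusted p = 0.014) completed the set. The *Ccl21a* difference was 12.78 without HSC control replicate 2. The calls of *Ccl24* and *Cxcr3* ended in 8 and 10 of the 12 cases in which 1 library was left out (adjusted p = 0.054 to 0.085 and 0.052 to 0.12). For *Cx3cr1*, *Cxcl13* and *Ccl6* the difference was not called, with log2 differences of 0.01, 0.48 and -0.08 (SE 0.29, 1.24 and 0.27). The T cell markers summed to 39.0 to 86.0 CPM in *Smad4 fl/fl* controls and 44.6 to 165 CPM in Smad4 cKO macrophages, with none of 7 called, and the part of lymphocytes in the *Cxcr3* and *Xcr1* differences was not tested.

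**Figure D2:**
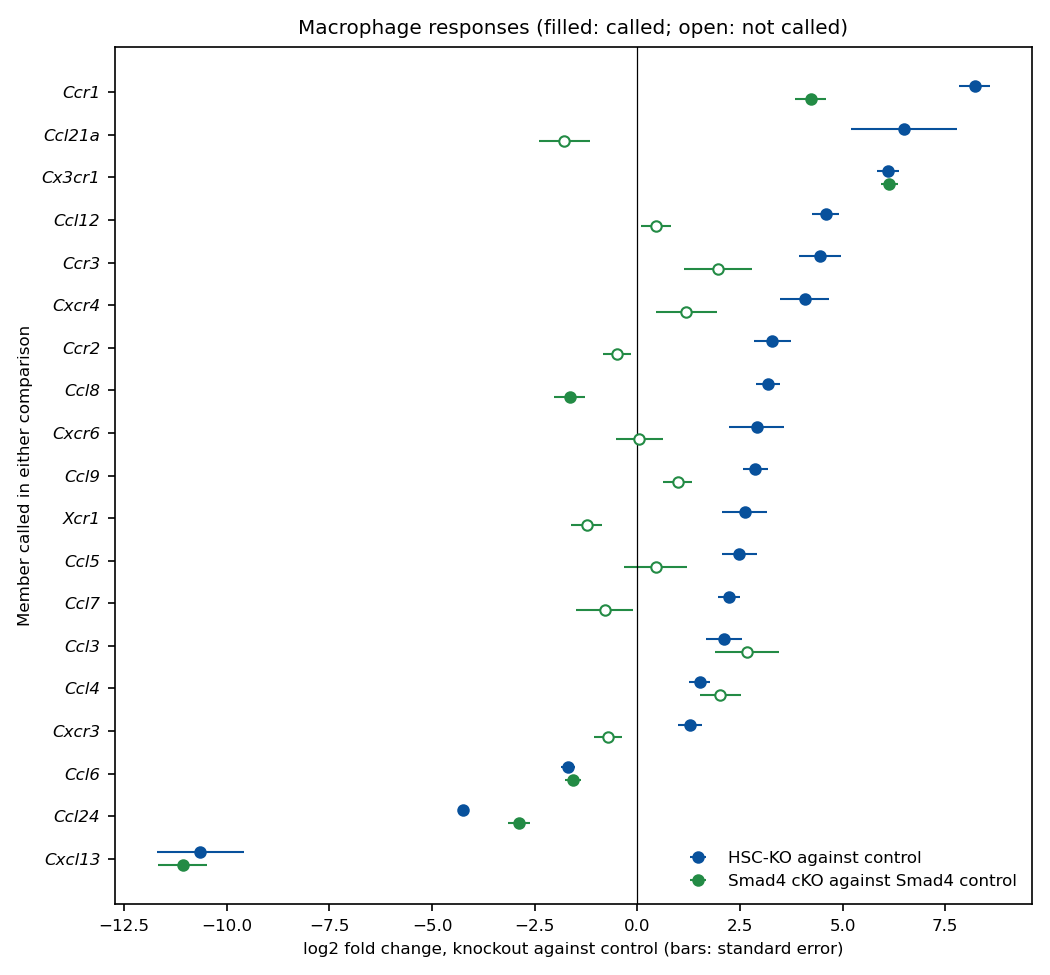
Log2 fold change (horizontal axis, bars for 1 SE) of each member called in at least 1 macrophage comparison, in HSC-KO against control (blue) and Smad4 cKO against control (green), filled where called, n = 3 libraries per group. *Cx3cr1*, *Ccl6* and *Cxcl13* points lie together, while *Ccr2*, *Ccl12*, *Ccl8* and *Xcr1* points lie apart.

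Many members lie side by side in the genome, and some neighbours moved together in HSC-KO macrophages while others beside them did not. Positions are from GENCODE vM21 on GRCm38. On chromosome 9, between 123678439 and 124113557, lie *Ccr9*, *Cxcr6*, *Xcr1*, *Ccr1*, *Ccr3* and *Ccr2*, in this order. In HSC-KO macrophages all of these but *Ccr9* rose, where 6.32% of all genes were called higher. In Smad4 cKO macrophages *Ccr1* alone among them did, where 2.76% of all genes were called higher. On chromosome 11, *Ccl5*, *Ccl9*, *Ccl6*, *Ccl3* and *Ccl4* lie between 83525778 and 83664683. *Ccl9* and *Ccl6* are 9245 bases apart on the same strand, and in HSC-KO macrophages *Ccl9* rose by 2.87 while *Ccl6* fell by 1.69 on the log2 scale. In the other group of chromosome 11, between 82035571 and 82305690, *Ccl7*, *Ccl12* and *Ccl8* rose in HSC-KO macrophages, beside 6.32% of all genes. There, *Ccl2* and *Ccl1* were not called and *Ccl11* was not tested.

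**Figure D3:**
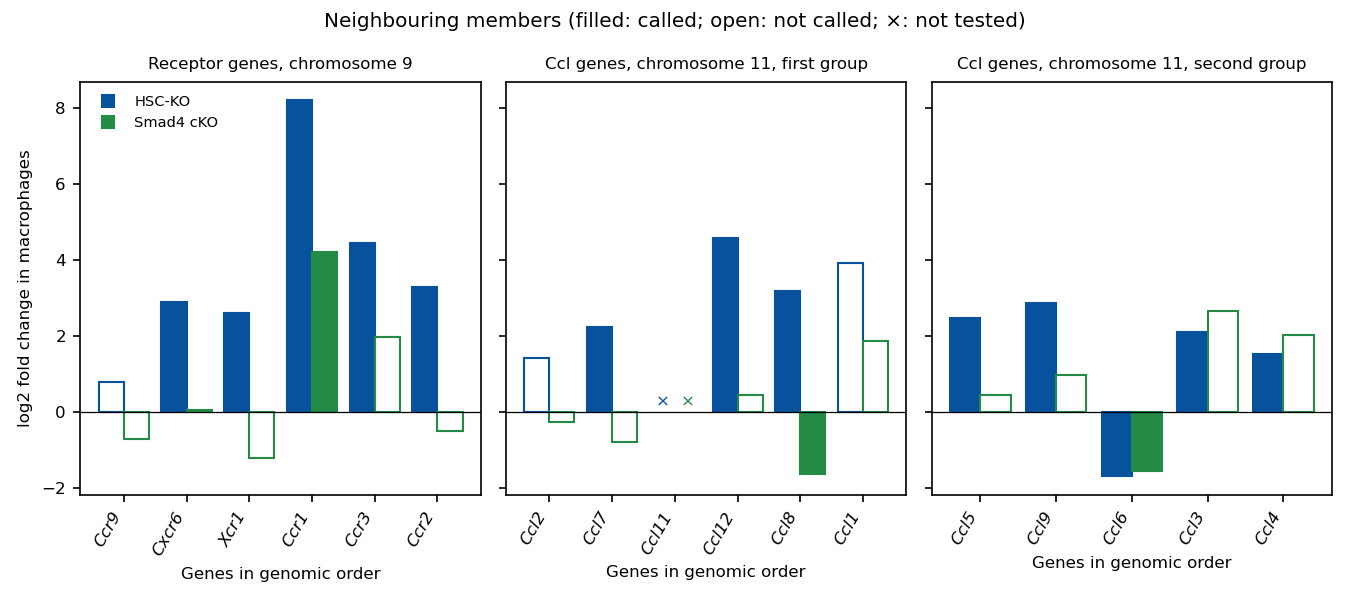
Log2 fold changes in macrophages (vertical axis) of neighbouring members in genomic order, for HSC-KO (blue) and Smad4 cKO (green), n = 3 libraries per group, filled bars where called, open bars where not called and crosses where not tested. *Ccl6* points down between *Ccl9* and *Ccl3*, and *Ccr9* stands beside the risen receptors with an open bar.

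The fourth question was how ECs changed in *Gdf2/Bmp10* HSC-KO mice. Of 29 members tested, 4 rose and 6 fell, beside 7.68% of all genes called higher and 6.01% called lower. Of the 29, 13 reached the count filter in all libraries of both groups. Among those that rose, 2 of 4 reached it in HSC-KO ECs only, and among those that fell, 2 of 6 in control ECs only. These entered the test through the group in which they are high, so their calls are a description only. The median log2 fold change was 0.19, against 0.00 over all genes. Without HSC-KO replicate 1, 13 members were called instead of 10. Markers of other cells moved in the same libraries. The 6 Kupffer cell markers summed to 23.6 to 27.5 CPM in control ECs and 0.231 to 1.20 CPM in HSC-KO ECs, with 6 of 6 lower, and the general macrophage markers to 189 to 277 CPM and 56.4 to 94.1 CPM, with 3 of 5 tested lower. Most of the general macrophage sum was *Mertk*, at 172, 265 and 215 CPM in control ECs and 91.2, 50.9 and 69.1 CPM in HSC-KO ECs. *Mertk* was 399, 326 and 288 CPM in control macrophages, so this sum is no measure of macrophages in the EC libraries. The 6 monocyte markers summed to 9.58 to 11.6 CPM and 72.8 to 102 CPM, with both of those tested higher. These were *Ly6c2*, at 0.0921 to 0.178 CPM in controls and 53.9 to 67.8 CPM in HSC-KO ECs, and *Plac8*, at 9.24 to 11.5 CPM and 14.8 to 34.5 CPM, while *Chil3* had no count in either group and *Vcan* none in controls and at most 0.0316 CPM in HSC-KO ECs. Of 2 T cell markers tested 1 was higher, as was the 1 neutrophil marker tested. Lower were 1 of 9 stellate and fibroblast markers and 1 of 5 hepatocyte markers tested. The sort for CD45-CD31+ cells is meant to leave all of these cells out. The part of these cells in the changes of the members was not tested. Atypical receptors, the main receptors of control ECs, changed in both directions. *Ackr4* was 62.6, 41.8 and 48.4 CPM in control ECs and 0.243, 0.121 and 0.0842 CPM in HSC-KO ECs (log2 fold change -8.40, SE 0.40, adjusted p = 3.9e-05). *Ackr1* was 124, 111 and 70.7 CPM and 13.1, 6.98 and 3.96 CPM (log2 fold change -3.70, SE 0.45, adjusted p = 0.0014). *Ackr3* was 2.04, 1.64 and 0.679 CPM and 5.51, 18.9 and 7.87 CPM (log2 fold change 2.86, SE 0.57, adjusted p = 0.012). Thus 2 of the 4 atypical receptors fell and 1 rose. *Ackr2* was 66.4, 50.8 and 55.97 CPM in controls and 29.6, 4.31 and 4.25 CPM in HSC-KO ECs, below all controls but not called (log2 fold change -2.22, SE 0.73, adjusted p = 0.074). Replicate 1 was far above the other HSC-KO libraries, and without it the adjusted p was 4.9e-05 and the log2 fold change -3.77. On the summed level of 12 endothelial markers, control ECs were at 12586 to 12853 CPM and HSC-KO ECs at 9456 to 10813 CPM.

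Ligands of ECs moved in both directions. *Cx3cl1*, fractalkine, a membrane-anchored ligand on inflamed vessels that holds CX3CR1+ cells, was 0.115, 0.152 and 0.0460 CPM in control ECs and 6.998, 23.6 and 21.5 CPM in HSC-KO ECs (log2 fold change 7.36, SE 0.65, adjusted p = 0.00033). *Ccl21a* was 1.27, 1.52 and 0.737 CPM and 20.4, 11.7 and 11.8 CPM (log2 fold change 3.61, SE 0.36, adjusted p = 0.00055). *Ccl21b*, a near-identical copy whose reads are hard to assign, had no count in control ECs and 1.07, 0.399 and 0.295 CPM in HSC-KO ECs, at least 14.3-fold higher with 3 counts per library as the floor (adjusted p = 0.009). No library overlapped between the groups for these 3. Of 5 markers of lymphatic ECs, which express *Ccl21a*, 2 were called higher in HSC-KO ECs and 1 lower. *Pdpn*, called higher, was 1.26, 2.03 and 0.921 CPM in controls and 8.75, 6.58 and 7.06 CPM in HSC-KO ECs, and *Mmrn1*, called higher, was 0.744, 0.455 and 0.495 CPM and 5.10, 2.58 and 2.63 CPM. *Flt4*, which other liver ECs also express, was called lower, with 2945, 5222 and 4759 CPM and 1347, 1554 and 1214 CPM. *Prox1*, which defines lymphatic ECs, overlapped between the groups, with 1.33, 2.27 and 0.978 CPM and 1.37, 1.42 and 1.40 CPM. The part of lymphatic ECs in the *Ccl21a* rise was not tested.

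The ligands that fell in ECs include those with the highest levels there. *Cxcl16* was 490.4, 549 and 527 CPM in control ECs and 248, 94.1 and 68.2 CPM in HSC-KO ECs (log2 fold change -1.97, SE 0.44, adjusted p = 0.019). *Cxcl9* was 109, 145 and 120.02 CPM and 48.6, 22.8 and 14.1 CPM (log2 fold change -2.16, SE 0.41, adjusted p = 0.0096). *Cxcl10*, its neighbour, was 90.9, 70.6 and 71.05 CPM and 54.6, 21.7 and 16.9 CPM and was not called (log2 fold change -1.35, SE 0.41, adjusted p = 0.054). All HSC-KO libraries lay below the controls for these 3, and replicate 1 was closest to them. Without replicate 1, *Cxcl10* was called (log2 fold change -2.02, adjusted p = 0.00053), and the log2 fold change of *Cxcl16* was -2.71. The call of *Cxcl16* ended without HSC-KO replicate 2 or control replicate 2 or 3 (adjusted p = 0.052 to 0.072). *Ccl2* was 2.71, 1.86 and 3.36 CPM and 0.794, 1.17 and 0.379 CPM (log2 fold change -1.79, SE 0.47, adjusted p = 0.033), a call that ended without replicate 1 or 3 of either group (adjusted p = 0.067 to 0.1). *Ccl6* was 1.70, 2.11 and 1.91 CPM and 0.206, 0.302 and 0.0526 CPM (log2 fold change -3.38, SE 0.61, adjusted p = 0.0075), where the macrophage markers of the HSC-KO EC libraries would give 0.0998, 0.257 and 0.0751 CPM. The measured values are above these in replicates 1 and 2 and below in replicate 3, and the part of macrophage RNA in the call was not tested. *Cxcl12* overlapped between the groups, with 17.5, 12.1 and 4.42 CPM and 13.6, 16.3 and 15.4 CPM (log2 fold change 0.39, SE 0.42, adjusted p = 0.59).

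**Figure D4:**
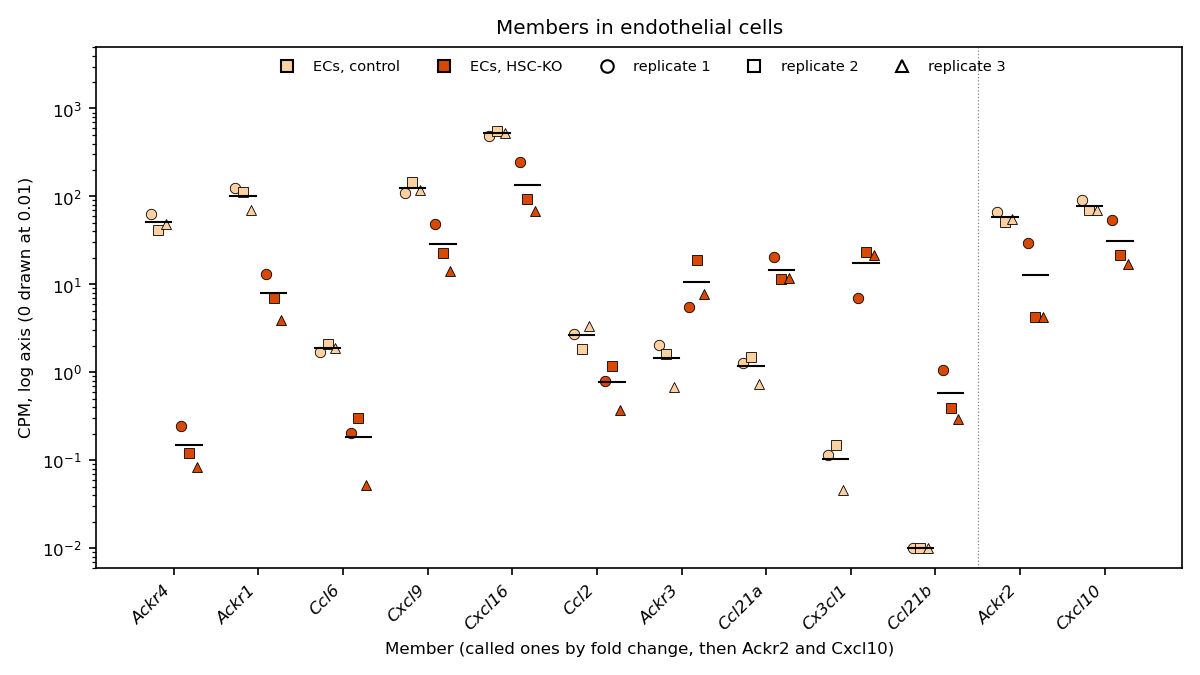
CPM (log axis, 0 drawn at 0.01) in each EC library for the 10 members called in ECs, and right of the dotted line for *Ackr2* and *Cxcl10*, with pale points for controls, dark points for HSC-KO, shapes for replicates 1 to 3 and bars for group means. Replicate 1 of HSC-KO ECs (dark circles) lies closest to the controls for *Ackr1*, *Ackr2*, *Cxcl9*, *Cxcl10*, *Cxcl16* and *Cx3cl1*.

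In whole livers, 43 members were tested, of which 5 rose and 2 fell, beside 1.03% of all genes called higher and 1.45% called lower. The median log2 fold change was -0.28, against -0.01 over all genes. *Cxcl13* was 3.08, 5.12 and 5.44 CPM in control livers and 0.0618, 0 and 0 CPM in HSC-KO livers, where 4 counts were left in the 3 libraries together (log2 fold change -7.65, SE 0.85, adjusted p = 0.005). *Ccl6* was 7.22, 10.5 and 8.73 CPM and 1.33, 1.67 and 1.27 CPM (log2 fold change -2.58, SE 0.25, adjusted p = 0.0025). *Cx3cr1* was 1.44, 1.23 and 1.85 CPM and 9.01, 15.6 and 9.84 CPM (log2 fold change 2.98, SE 0.29, adjusted p = 0.0028). These calls held in all alternatives run for them. In the same livers the Kupffer cell markers summed to 356 to 607 CPM in controls and 22.3 to 28.8 CPM in HSC-KO mice, with 6 of 6 lower, and the general macrophage markers to 219 to 333 CPM and 79.6 to 123 CPM, with 3 of 6 lower. *Csf1r*, in both lists, was 21.6, 26.2 and 21.1 CPM in HSC-KO livers, most of the Kupffer cell sum there. The part of macrophage content in these member changes was not tested.

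The other 4 liver calls were less firm. In these livers 2 of 12 endothelial markers and 1 of 5 lymphatic EC markers fell, and 1 of 9 stellate and fibroblast markers rose. The part of such cells in the 4 calls was not tested. *Ackr3* was 2.29, 0.552 and 1.27 CPM in control livers and 14.9, 12.6 and 4.99 CPM in HSC-KO livers (log2 fold change 3.04, SE 0.58, adjusted p = 0.039). *Ccr3* was 0.0886, 0.368 and 0.106 CPM and 1.34, 2.65 and 1.71 CPM (log2 fold change 3.40, SE 0.66, adjusted p = 0.041). *Ccl21a* was 0.554, 0.383 and 0.501 CPM and 1.98, 2.03 and 1.61 CPM (log2 fold change 2.01, SE 0.35, adjusted p = 0.026). None overlapped between the groups. The call of *Ccr3* ended without any 1 library other than control replicate 2 (adjusted p = 0.058 to 0.16), and those of *Ackr3* (0.057 to 0.16) and *Ccl21a* (0.067 to 0.11) without any 1 other than HSC-KO replicate 3. *Cx3cl1* was 1.34, 1.26 and 0.963 CPM and 3.92, 2.93 and 2.61 CPM (log2 fold change 1.46, SE 0.30, adjusted p = 0.048), and its call ended in the same 5 cases as that of *Ackr3* (adjusted p = 0.11 to 0.18). *Ccl9* was 54.8, 54.1 and 57.4 CPM and 109.95, 105 and 83.3 CPM, above all controls at a change below the fold limit (log2 fold change 0.89, SE 0.13, adjusted p = 0.016), and was called without HSC-KO replicate 3 (log2 fold change 1.01). *Cxcl12* was 463, 514 and 405 CPM and 518, 605 and 534 CPM (log2 fold change 0.31, SE 0.14, adjusted p = 0.44). *Ackr2* and *Ackr4* overlapped between control and HSC-KO livers, with 2.61, 3.13 and 3.58 CPM and 3.31, 2.80 and 1.81 CPM for *Ackr4* (log2 fold change -0.18, SE 0.30, adjusted p = 0.88). Reads of *Ackr4* may include some of *Acad11*, since 8.9% of its exon length overlaps that gene on the opposite strand.

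Ligands and their receptors can be read side by side across the cell types. *Cx3cl1* rose in ECs and livers, and *Cx3cr1* in macrophages of both knockouts and in livers. Per kilobase, the 2 members of this pair were at 4.42 CPM in HSC-KO ECs and 369.6 CPM in HSC-KO macrophages. *Ccl24* fell in macrophages of both knockouts while *Ccr3* rose in HSC-KO macrophages and livers. *Ccl6* fell in all 4 comparisons, the only member called in all of them, while *Ccr1* rose in both macrophage comparisons. *Ccl7*, *Ccl12* and their receptor *Ccr2* rose together in HSC-KO macrophages. In ECs, *Ccl21a* rose and its scavenger *Ackr4* fell, and *Ccl2* and *Ackr1*, which binds it, both fell. *Cxcl16* fell in ECs while its receptor *Cxcr6* rose in HSC-KO macrophages. The receptor of *Cxcl13*, *Cxcr5*, was not called in any comparison in which it was tested, at 0.298, 0.423 and 0.214 CPM in control and 0.435, 0.242 and 0.324 CPM in HSC-KO macrophages. Macrophages and ECs here include libraries of the same mice, and none of these pairings was tested as a pair.

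**Figure D5:**
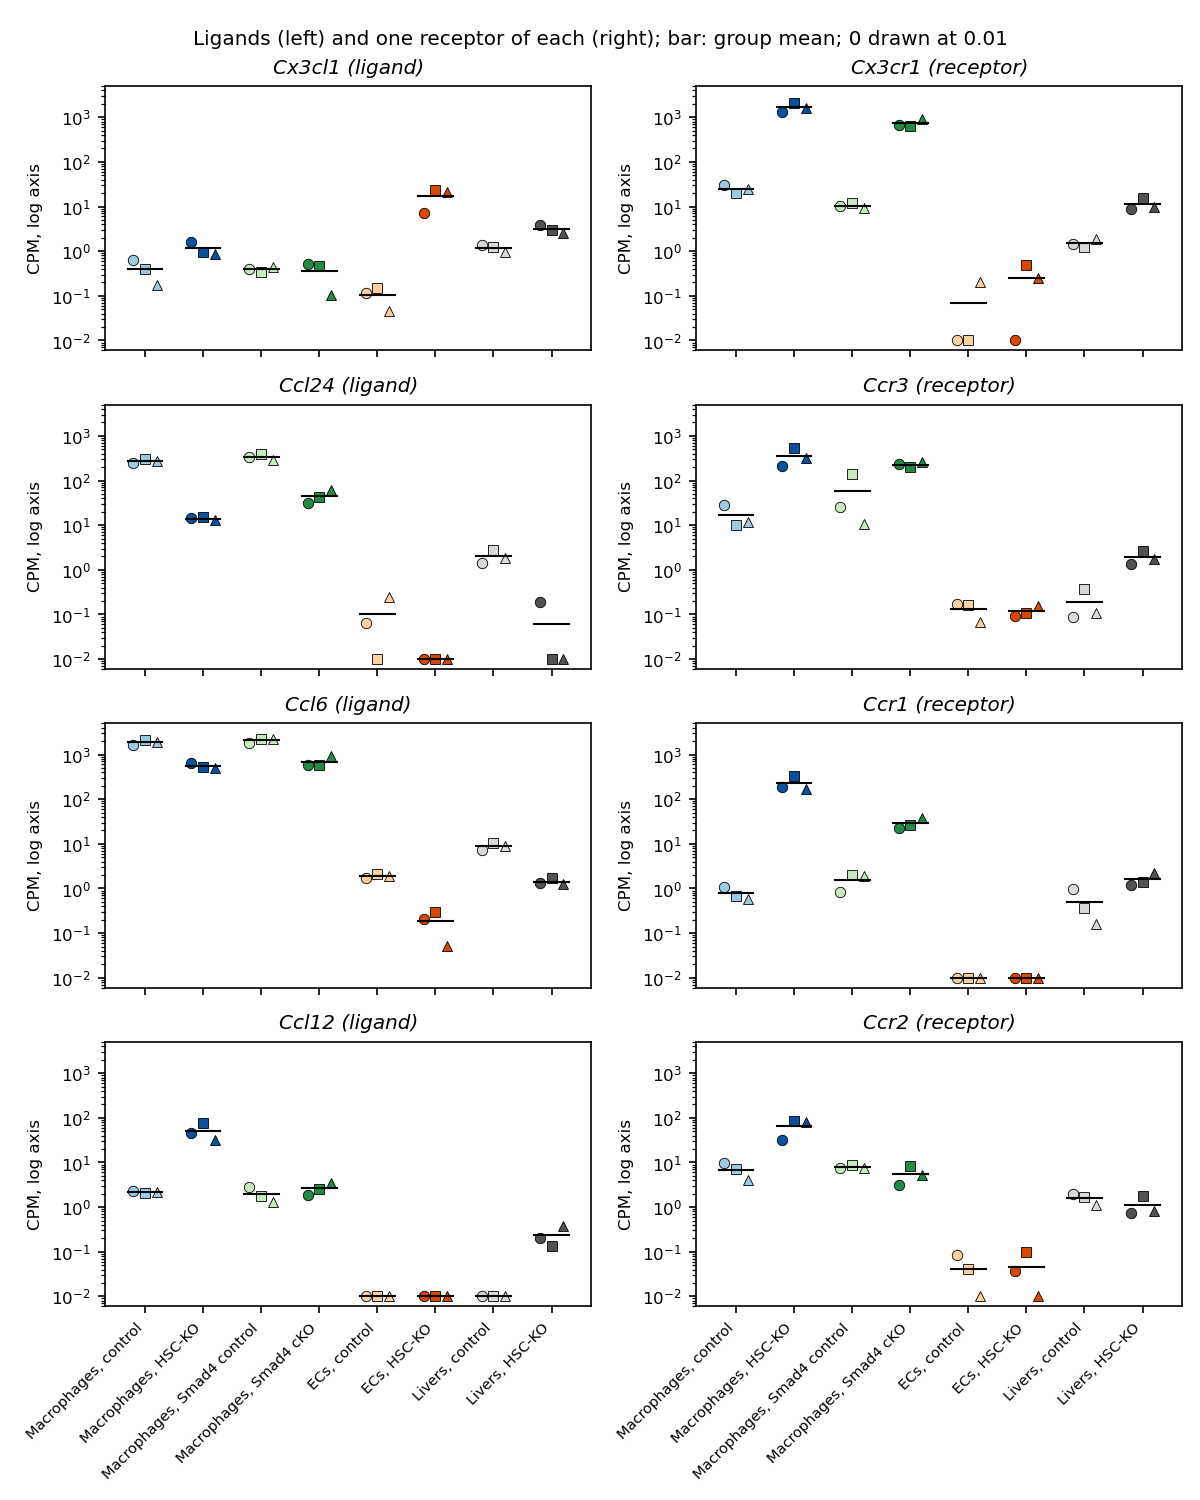
CPM (log axis, 0 drawn at 0.01) in every library for 4 ligands (left) and a receptor of each (right) in the 8 groups, with shapes for replicates 1 to 3 and bars for group means. *Cx3cl1* is highest in HSC-KO ECs and *Cx3cr1* in HSC-KO macrophages, *Ccl24* and *Ccl6* are lower and *Ccr3* and *Ccr1* higher in HSC-KO macrophages than in their controls, and *Ccl12* and *Ccr2* are high in HSC-KO macrophages.

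The difference between the responses of macrophages and ECs to HSC-KO was tested for 48 members over 12 libraries. The log2 fold change was higher in macrophages for 10 and lower for 4, beside 6.29% and 5.96% of all genes. Since 3 mice gave both cell types, the test was repeated with the mouse as a random block in limma-voom, where 6 members were called. Of these, *Cxcl16* (log2 difference 2.84, SE 0.53, adjusted p = 0.0042), *Cxcl9* (log2 difference 2.67, SE 0.60, adjusted p = 0.012), *Ackr4* (log2 difference 6.49, SE 1.17, adjusted p = 0.0035), *Cxcl13* (log2 difference -9.05, SE 1.65, adjusted p = 0.0038) and *Ccl25* (log2 difference -1.32, SE 0.35, adjusted p = 0.028) were called in both analyses. That of *Cxcl13* ended without HSC-KO EC replicate 1 (adjusted p = 0.099), and that of *Ccl25* without any 1 of 7 libraries (adjusted p = 0.053 to 0.068). *Cxcl13* was 0.492, 0.248 and 0.403 CPM in control ECs and 0.280, 0.0968 and 0 CPM in HSC-KO ECs. Macrophage RNA at the share given by the macrophage markers would carry 0.252, 0.211 and 0.253 CPM of it in control ECs. The part of macrophage RNA in the *Cxcl13* difference was not tested. *Ackr4* was 0.107, 1.14 and 0.694 CPM in control macrophages, where endothelial RNA at the share given by the endothelial markers would carry 0.0544, 0.983 and 0.668 CPM, and the part of EC RNA in this difference was not tested. *Ccl25*, the CCR9 ligand, was 4.20, 3.37 and 4.63 CPM in control and 2.62, 1.86 and 1.81 CPM in HSC-KO macrophages, against 1.97, 1.83 and 1.68 CPM and 2.30, 2.86 and 2.38 CPM in ECs. It was not called within either cell type. *Ccl7*, *Ccl9*, *Ccl8* and *Xcr1* had no count in HSC-KO ECs, and entered the test through macrophages alone, since they had too few counts to be tested in ECs. These 4 of the 10 are thus no measure of a difference between cell types. *Cx3cl1*, *Ccl2*, *Cxcl2*, *Ccl6* and *Ccr3* were not called in limma-voom with the mouse block. That analysis changed the test and the block together, so the part of each was not tested.

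Genes that act with the members were read from 2 lists. Of 12 further genes of the chemokine system, 11 were tested in HSC-KO macrophages, where 2 rose and 1 fell, beside 6.32% and 5.34% of all genes. In Smad4 cKO macrophages 12 were tested, where 2 rose and 1 fell, beside 2.76% and 2.67%. *Pf4*, which encodes CXCL4 and escapes the naming rule, rose from 59.6 ± 10.7 to 745 ± 223 CPM in HSC-KO macrophages (log2 fold change 3.70, SE 0.25, adjusted p = 0.00012) and from 66.6 ± 14.6 to 359 ± 62.9 CPM in Smad4 cKO macrophages (log2 fold change 2.44, SE 0.21, adjusted p = 0.00082). *Adam10*, the protease that sheds CX3CL1 and CXCL16, fell in both (log2 fold change -1.37, SE 0.13, adjusted p = 0.00046 in HSC-KO and log2 fold change -1.13, SE 0.12, adjusted p = 0.0015 in Smad4 cKO macrophages). *Cd74*, a receptor of the cytokine MIF, rose in HSC-KO macrophages (log2 fold change 1.69), and *Gpr35*, an orphan-type receptor of leukocytes, in Smad4 cKO macrophages (1.45). In ECs 2 of 11 rose, *Cd74* (3.20) and *Cmklr1* (1.95), the chemerin receptor, and 3 fell, beside 7.68% and 6.01% of all genes. *Gpr35* was 1 of those that fell (-2.47). *Gpr182*, an endothelial receptor that takes up chemokines, fell from 1164 ± 136 to 138 ± 138 CPM (log2 fold change -3.11, SE 0.65, adjusted p = 0.014), and *Dpp4*, a protease that trims CXCL9, CXCL10 and CXCL12, from 328 ± 22.1 to 10.8 ± 14.5 CPM (log2 fold change -4.96, SE 1.01, adjusted p = 0.013). The SD of *Gpr182* in HSC-KO ECs is as large as its mean. In livers 1 of 12 fell, beside 1.45% of all genes, which was *Gpr182* (log2 fold change -3.68, SE 0.33, adjusted p = 0.0021). Of the genes for receptor signalling, 5 of 26 rose in HSC-KO macrophages, beside 6.32% of all genes. These were *Arrb1* (β-arrestin 1; log2 fold change 1.32, SE 0.13, adjusted p = 5e-04), *Pik3cg* (phosphoinositide 3-kinase γ; log2 fold change 2.04, SE 0.30, adjusted p = 0.0034), the receptor kinase gene *Adrbk2* (log2 fold change 1.29) and the genes of G protein regulators *Rgs10* (1.16) and *Rgs18* (2.44). In Smad4 cKO macrophages 3 of 25 rose, beside 2.76%, namely *Adrbk2* (1.09), *Rgs10* (1.08) and the receptor kinase gene *Grk5* (1.01). In ECs 2 of 21 rose, *Grk5* (2.63) and *Rgs16* (4.12), a share near the 7.68% of all genes, and 5 fell, beside 6.01%. Those that fell were *Arrb2* (log2 fold change -3.36, SE 0.46, adjusted p = 0.0024), *Rgs10* (log2 fold change -4.08, SE 0.29, adjusted p = 0.00014), *Pik3cg* (-1.07), the phospholipase gene *Plcb3* (-1.15) and the GTPase gene *Rac2* (-1.97). In livers 1 of 26 fell, which was *Rac2* (-1.49), beside 1.45% of all genes.

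Over the 4 knockout comparisons, 28 members were called in at least 1, 18 in 1, 6 in 2, 3 in 3 and 1 in 4. Of the 20193 genes tested in at least 1 of them, 20.3% were called in at least 1, 14.7% in 1, 4.44% in 2, 1.00% in 3 and 0.139% in 4, against 54 members so tested. The other 33 had no call in any of them, and 7 of these (*Ccl11*, *Ccl19*, *Ccl21c*, *Ccl26*, *Cxcl3*, *Cxcl15* and *Cxcr1*) had too few counts to be tested in any. Among these, neutrophil attractants had low levels in ECs: *Cxcl1* was 1.40, 3.35 and 2.72 CPM in control ECs and 2.48, 8.52 and 4.64 CPM in HSC-KO ECs, with overlap (log2 fold change 1.04, SE 0.50, adjusted p = 0.2), and their receptors *Cxcr1* and *Cxcr2* were at or below 0.687 CPM in every library. *Ccr7*, the CCL21 receptor, was 3.07, 1.22 and 0.605 CPM in control and 2.33, 0.779 and 6.86 CPM in HSC-KO macrophages, with overlap (log2 fold change 1.10, SE 0.85, adjusted p = 0.42). *Cxcl14*, a homeostatic ligand, was 6.28, 11.7 and 11.1 CPM and 5.26, 9.27 and 7.39 CPM there (log2 fold change -0.35, SE 0.30, adjusted p = 0.46). *Ccl17* was below all controls in both macrophage comparisons and not called, with 1.38, 0.931 and 0.392 CPM in controls and 0.156, 0 and 0.146 CPM in HSC-KO macrophages (log2 fold change -3.08, SE 1.16, adjusted p = 0.11).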

How the data were processed

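RNA-seq was performed on sorted liver macrophages, sorted liver ECs and whole livers. The authors aligned reads to the mouse genome (mm10) with HISAT2 and counted them per gene with featureCounts, and the deposited tables hold raw counts. Versions, the annotation release and the use of the strand are not given in the sources used here, and the library kit is named differently in the labels and in the methods. Members and gene lists were chosen with earlier results of these data known. Every called member, the 5 highest ligands and receptors of each control group, partners of these, and called genes of the lists of further chemokine system and signalling genes were to be named, and the others summarised. Among members, *Ccl21a*, *Ccl21b*, *Ccl21c*, *Ccl27a* and *Ccl27b* have near-identical copies, so their counts are uncertain. The values of 1 member are not reported here, and it is included in counts of members only.

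Genes with low counts were removed (filterByExpr, minimum count 10, minimum total 15). Of the members tested, 33 of 44 in HSC-KO macrophages, 38 of 45 in Smad4 cKO macrophages, 13 of 29 in ECs and 25 of 43 in livers reached that level in all libraries of both groups. Members that reached it only in the group where they are high gave 1 higher and 1 lower call in HSC-KO macrophages. Such members gave 1 lower call in Smad4 cKO macrophages, 2 higher and 2 lower in ECs, and 1 higher and 1 lower in livers. Then TMM-scaled counts were fitted within each comparison by edgeR 4.0.16 (quasi-likelihood test, two-sided, Benjamini-Hochberg) in R 4.3.3. A call needed an adjusted p below 0.05 and a log2 fold change beyond 1. Differences between responses were fitted as interactions, on a table of 12 libraries each. Alternatives were DESeq2 1.42.0, limma 3.58.1 (voom), other filters and scalings, a test against the fold limit, covariates, blocks and leaving out each library. Scripts were tested on simulated data. Levels per kilobase used exon lengths of GENCODE vM21, which held 60 of the 61 members, and RefSeq promoters matched 45. The floor of 3 counts was at most 0.0334 to 0.0534 CPM by group and covers counting error only. The study's methods give 3 independent biological replicates for each RNA-seq experiment, and the labels list them as separate libraries. The p values measure the spread between these libraries.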

Additional observations from a re-analysis of the deposited data

Results flagged for a closer look

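Members were picked out here because the difference between 2 responses was itself called, by edgeR's quasi-likelihood test of the interaction with Benjamini-Hochberg adjustment. Between the HSC-KO and the Smad4 cKO response of macrophages, the log2 difference was positive, with the higher fold change in HSC-KO macrophages, for *Ccl12* (4.19), *Ccl21a* (8.32), *Ccl8* (4.88), *Ccr1* (4.04), *Ccr2* (3.84), *Cxcl16* (1.65), *Cxcr3* (2.05) and *Xcr1* (3.89). It was negative for *Ccl24* (-1.32), which fell in both. *Ccl8* had risen in HSC-KO and fallen in Smad4 cKO macrophages.

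Between the HSC-KO response of macrophages and that of ECs, the log2 difference was positive, with the higher fold change in macrophages, for *Ackr4* (6.49), *Ccl2* (3.22), *Ccl6* (1.70), *Ccl7* (8.47), *Ccl8* (6.41), *Ccl9* (8.37), *Ccr3* (4.64), *Cxcl16* (2.84), *Cxcl9* (2.67) and *Xcr1* (6.97). It was negative for *Ccl25* (-1.32), *Cx3cl1* (-5.78), *Cxcl13* (-9.05) and *Cxcl2* (-3.47). *Ccl7*, *Ccl8*, *Ccl9* and *Xcr1* had too few counts to be tested in ECs and no count in any HSC-KO EC library. They entered the interaction through macrophages alone, so that their values are no measure of a difference between cell types.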

How the results depend on the processing

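Of the members called, *Cxcl13*, *Cx3cr1* and *Ccl24* kept direction and call wherever they were called and refitted within 1 knockout comparison. *Ccl6* did so too, except for Smad4 cKO macrophages against the fold limit (adjusted p = 0.12 in edgeR's test). In Smad4 cKO macrophages 7 members were called, against 14 with DESeq2, 4 with a test against the fold limit and 11 with all 12 macrophage libraries in 1 fit. In livers 7 were called, against 4 with a filter of at least 1 count and 3 with the test against the fold limit. The 2 macrophage responses differed for 9 members, and for 14 with DESeq2. The macrophage and EC responses differed for 14, against 8 with the test against the fold limit, 1 with the replicate block and 6 with limma-voom and the mouse as block, which changed the test and the block together. Leaving out each library in turn gave 16 to 20 calls in HSC-KO macrophages, 5 to 8 in Smad4 cKO macrophages, 8 to 13 in ECs and 3 to 7 in livers. Among the uncalled members refitted, which are some of all those tested, the sign changed in 3 cases: *Cxcl10* in HSC-KO macrophages (-0.37 to 0.056 over the left-out libraries), *Cxcl9* in livers (-0.83 to 0.075, and 0.14 with *Xist* as covariate) and *Ackr4* in livers (-0.38 to 0.027, and 0.049 with *Xist*). The cause was not tested. Scaling by library size alone moved the median log2 fold change of all genes by 0.293 in ECs, 0.156 in Smad4 cKO macrophages, -0.109 in livers, -0.115 for the difference between knockouts and -0.215 for that between cell types. The replicate number was tried as a block although same-numbered libraries did not deviate together in every pair (correlations -0.11 to 0.16 in HSC-KO macrophages, -0.10 to 0.10 in Smad4 cKO macrophages, 0.03 to 0.12 in ECs, where each library was closest to its own number, and 0.01 to 0.05 in livers). With the replicate block, 20, 7, 12 and 5 members were called in these 4 comparisons and 31 between control cell types. Members near the floor are limited by depth.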
